A study of Rattus norvegicus with 6 samples.

Results

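The genes of DNA replication and S phase were followed in cultured cells from the amniotic fluid of rats. There were 37 such genes, chosen by symbol from a list of replication enzymes, nucleotide synthesis enzymes and regulators of entry into S phase, and all 37 were found among the 22085 genes of the deposited table. All 37 passed the filter on low counts that left 15776 genes for testing, with 95 to 13950 counts per gene and library. A control group of 3 libraries was set against 3 libraries from pregnant rats in which preeclampsia, a disorder with high maternal blood pressure, was modelled. In both, amniotic fluid was taken on embryonic day 18.5, its cells were grown in medium with 10% fetal bovine serum, and RNA was sequenced at passage 4, per the labels, which name the cells mesenchymal stem cells. The rat strain, the animals' age, how the model was induced, and whether each library came from 1 litter or several are not given in the sources used here, so every p-value measures the spread between these libraries only.

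DNA replication begins in G1, when the Mcm2 to Mcm7 proteins are loaded onto origins as a ring-shaped helicase, with the help of Cdc6 and Cdt1. In S phase the ring is activated by Cdc45 and the GINS proteins, primase and DNA polymerase alpha start each new strand, and polymerases delta and epsilon extend it while held on DNA by the Pcna clamp. Transcription of many of these genes is switched on at the G1 to S boundary by E2F factors, and their messenger RNA is therefore often read as a sign of how many cells of a culture are cycling. In bulk RNA, fewer cells in S phase and less RNA per cell cannot be told apart.

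Promoters are shown first as background, since many members carry the letters of the E2F site beside their start. Whether these sites had a part in the levels of the members across libraries was not tested. Promoter sequences from RefSeq (build GRCr8, 250 bases before to 50 after the gene start) were matched by gene ID to 31 of the 37 members. Mcm4, Cdc6, Gins4, Rrm2, E2f1 and Ccne2 were not matched. The E2F site was searched as TTTCGCGC, TTTGGCGC, TTTCCCGC or TTTGCCGC on both strands. It was found in 15 of 31 member promoters (48.4%), in 480 of 12195 promoters of tested genes (3.94%) and in 651 of 27457 promoters of all genes (2.37%). In 12 of the 15 the match nearest to the start began within 60 bases of it. The 100 bases before the start are given for Mcm2, Mcm5, Mcm7, Gins1 and Tyms, which hold a match there, and for Rfc1 and Ccne1, which hold none, with the E2F letters in capitals. The former were picked for a whole match before the start. Rfc1 was picked as the member that varied least across libraries and Ccne1 as one of the 2 members that were not highest in preeclampsia library 1. The stretches lie at chr4:122918095-122918194 (minus strand), chr19:13488713-13488812 (plus), chr12:22163179-22163278 (minus), chr3:160184820-160184919 (plus), chr9:120776084-120776183 (minus), chr14:43319898-43319997 (plus) and chr1:99927910-99928009 (minus), and each is written 5′ to 3′ on its gene's strand.
Mcm2: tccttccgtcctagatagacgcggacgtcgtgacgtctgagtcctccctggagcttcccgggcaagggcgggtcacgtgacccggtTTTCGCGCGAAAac
Mcm5: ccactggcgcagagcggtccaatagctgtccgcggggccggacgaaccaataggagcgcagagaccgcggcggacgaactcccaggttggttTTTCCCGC
Mcm7: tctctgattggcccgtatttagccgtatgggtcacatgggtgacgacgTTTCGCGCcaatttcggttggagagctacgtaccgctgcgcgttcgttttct
Gins1: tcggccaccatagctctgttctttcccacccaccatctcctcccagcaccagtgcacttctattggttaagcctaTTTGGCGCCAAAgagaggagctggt
Tyms: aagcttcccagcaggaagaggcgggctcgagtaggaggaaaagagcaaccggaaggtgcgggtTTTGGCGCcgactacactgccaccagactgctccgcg
Rfc1: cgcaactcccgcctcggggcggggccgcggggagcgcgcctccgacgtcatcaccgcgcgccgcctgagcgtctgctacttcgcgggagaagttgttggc
Ccne1: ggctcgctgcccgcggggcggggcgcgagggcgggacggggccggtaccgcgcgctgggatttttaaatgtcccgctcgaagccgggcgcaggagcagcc

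In Mcm2 the capitals cover overlapping matches on opposite strands that begin at bases -14 and -10, counted from the gene start, and in Gins1 likewise at -25 and -21. Those of Mcm5, Mcm7 and Tyms begin at -8, -52 and -37. A match describes the letters only, and the absence of one in a window says nothing of E2F binding. Members with a match had a median range between the highest and lowest library of 2.04 on the log2 CPM scale (CPM being counts scaled to library size), from 1.29 to 2.67, and the 16 members without one had a median range of 1.51, from 0.52 to 2.59. The ranges of the members with and without a match overlapped, and no test was made across genes. For contrast, the CHR element of G2 and M phase genes (TTTGAA or TTCGAA, both strands) was found in 5 of 31 member promoters (16.1%), near its 15.5% over tested genes, and in 16 of 22 promoters of G2 and M phase genes (72.7%). E2F letters were found in 1 of those 22. The CCAAT box (CCAAT, both strands), a site of the factor NF-Y, was present in 20 of 31 member promoters (64.5%) and in 39.1% of those of tested genes. These motifs differ in letters, although the CCAAT box of a promoter can overlap an E2F match, as in Mcm7.

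**Figure D1:**
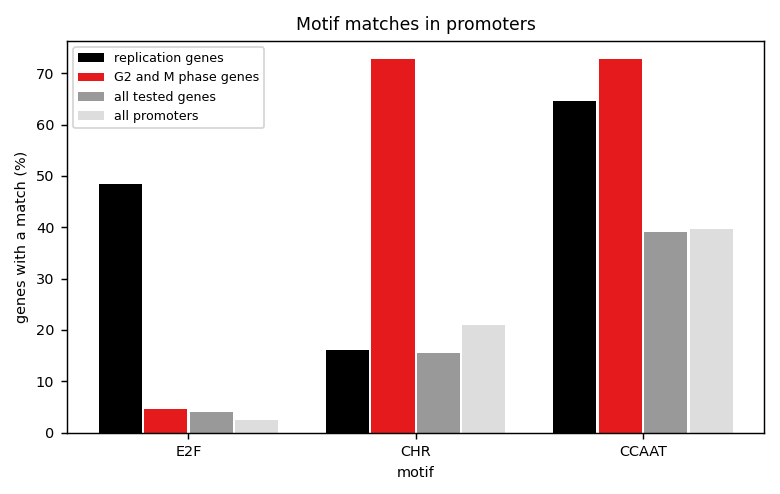
Share of genes (vertical axis, %) whose promoter holds each motif on either strand (horizontal axis), for 31 replication genes, 22 G2 and M phase genes, 12195 tested genes and all 27457 genes of the promoter table. The E2F bar of the replication genes stands at 48.4% against 3.94% of tested genes, and the CHR bar of the G2 and M phase genes at 72.7% against 15.5%.

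The main comparison asked whether replication genes differed between cells of the preeclampsia model and control cells. No member passed the test, and each varied more within the groups than between them. By edgeR's quasi-likelihood test with Benjamini-Hochberg adjustment over all 15776 genes, 0 of 37 members were called at an adjusted p under 0.05, the adjusted p running from 0.850 for Ccne1 to 0.995 for E2f1. The same test called 0 of all genes (0%). At an unadjusted p under 0.05 there were 0 members and 9.19% of all tested genes, the smallest p of a member being 0.409. DESeq2 called 0 members and 2.33% of tested genes. In 0 of 37 members did the 3 libraries of one group lie apart from the 3 of the other, which was so in 15.6% of tested genes.

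By sign alone, 32 of 37 members were higher and 5 lower in the preeclampsia group, against 51.7% of tested genes higher. Their median log2 fold change was 0.19, against 0.01 over all tested genes, and the members ran from -0.53 for Ccne2 to 0.51 for Gins1. The standard error of a member's log2 fold change had a median of 0.51, against 0.26 over all tested genes. The within-group standard deviation on the log2 CPM scale, with a median of 0.73 over the members and 0.31 over all tested genes, exceeded the difference of the group means in 37 of 37 members. Of a member's variance between libraries, a median of 1.71% lay between the groups, against 16.5% for all tested genes, the most being 14.7%. Differences of this size were not detectable against the spread of these libraries.

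The direction rested on single libraries. Without preeclampsia library 1, 0 of 37 members were higher, and the median of their log2 fold changes was -0.45. In that fit 3 members, E2f1, Cdc6 and Ccne1, had an unadjusted p under 0.05 and none was called, the smallest adjusted p being 0.384 for E2f1 by edgeR. The share of all genes under that unadjusted p in this fit is not given here, so the 3 are not read as a result. Both remaining preeclampsia libraries lay below all controls in 8 of 37 members, against 16.7% of tested genes. Without control library 2, 36 of 37 were higher and the median was 0.58, and without control library 3, 13 were higher and the median was -0.06. Leaving out preeclampsia library 2 or 3 gave medians of 0.43 and 0.41. Limma with library weights estimated from these same data left 0 of 37 higher, with a median of -0.26. Preeclampsia library 1 had the lowest weight, 0.483, so that fit is not independent of the one without it.

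**Figure D2:**
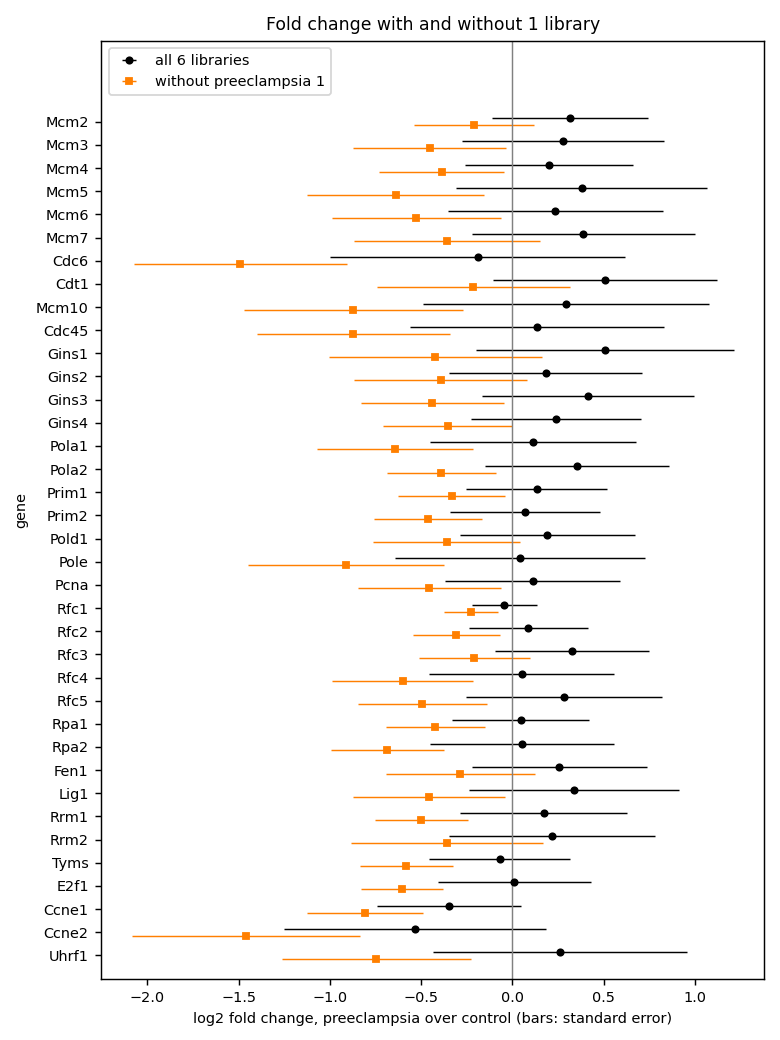
Log2 fold change of each of the 37 genes, preeclampsia over control (horizontal axis), with bars of 1 standard error, from all 6 libraries (circles) and without preeclampsia library 1 (squares). With all libraries 32 of 37 points lie to the right of 0, and without that library 0 of 37 do.

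What the members shared was their order across libraries, ranked on the log2 CPM scale. Preeclampsia library 1 was the highest of the 6 libraries in 35 of 37 members, against 18.4% of tested genes, and control library 2 was highest in the other two, Ccne1 and Ccne2. In 34 of 37 members preeclampsia library 1 stood first and control library 2 second, an order seen in 7.57% of tested genes. Tyms was the one member in which control library 1 came second, and in FPKM it lay level with control library 2. Control library 3 was the lowest in 22 members, preeclampsia library 3 in 8 and preeclampsia library 2 in 7. Counts of the 37 genes together made up 0.251% of preeclampsia library 1 (95% Wilson interval 0.250 to 0.252, counting error only) and 0.184% of control library 2 (0.182 to 0.185). They made up 0.117% of control library 1 (0.116 to 0.118), 0.0937% of preeclampsia library 3 (0.0929 to 0.0946), 0.0840% of preeclampsia library 2 (0.0833 to 0.0848) and 0.0822% of control library 3 (0.0814 to 0.0830). Each group thus held 1 high library and at least 1 near the lowest. These intervals take the counts as reads. Counts of 15 or less were too often multiples of 4 (35.1% to 38.0% of them in a library, where an even spread gives 20%), so a count may not be 1 read, and the intervals may then be too narrow.

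**Figure D3:**
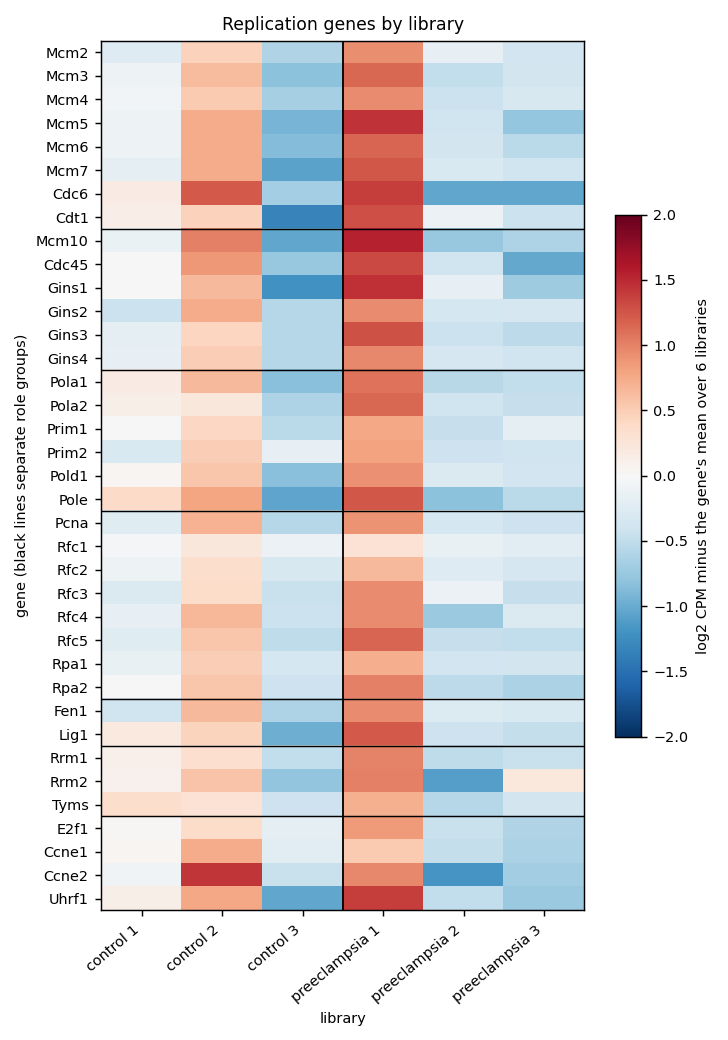
Log2 CPM of the 37 genes (rows, by role) in the 6 libraries (columns), minus each gene's mean over the libraries. Red is above and blue below that mean. Preeclampsia library 1 is highest in 35 of 37 rows and control library 2 in the other two.

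The helicase ring and its loaders were among the more variable members, with a median range of 2.18 on the log2 CPM scale over 8 genes. Of these, 7 were higher in the preeclampsia group and 1 lower; their log2 fold changes had a median of 0.30, and none was called. Mcm4, a helicase subunit (chromosome 11, 85258443 to 85272144 in the table's coordinates), measured 31.0, 48.8 and 21.9 FPKM (fragments scaled to gene length and library size) in controls 1 to 3, and 66.6, 23.9 and 26.5 FPKM in preeclampsia 1 to 3. Mcm7, another subunit (chromosome 12, 17042207 to 17048932), measured 15.9, 32.2 and 9.31 FPKM in the controls and 46.4, 14.7 and 14.2 FPKM in the preeclampsia libraries. In both genes 1 library of each group stood well above its fellows, and the groups overlapped. The log2 fold change was 0.20 (SE 0.46) for Mcm4 and 0.39 (SE 0.61) for Mcm7. Of the remaining subunits, Mcm2 averaged 11.8 ± 4.69 FPKM in the controls against 14.6 ± 8.25 in preeclampsia (SD, n = 3 each), and Mcm3 14.3 ± 7.09 and 17.3 ± 12.5. Mcm5 averaged 3.41 ± 1.94 and 4.46 ± 4.06 FPKM and Mcm6 13.9 ± 7.71 and 16.4 ± 12.2. All 6 subunits had higher means and larger standard deviations in the preeclampsia group, whose first library was the highest in each.

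The loaders Cdc6 and Cdt1 had unlike group means. Cdc6, an ATPase that joins the origin complex, averaged 6.46 ± 4.28 FPKM in the controls and 5.70 ± 6.03 in the preeclampsia libraries. Its log2 fold change was -0.19 (SE 0.81), with the largest standard error of the 37 genes, and Cdc6 varied 5.73-fold among the preeclampsia libraries. Cdt1, which brings the helicase to the origin, averaged 2.57 ± 1.37 and 3.68 ± 2.64 FPKM, with a log2 fold change of 0.51 (SE 0.61). Neither difference passed the spread between libraries.

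Genes that activate the helicase showed the same order of libraries, and 6 of 6 were higher in the preeclampsia group without being called. Mcm10, which helps start the helicase, measured 6.59, 15.5 and 3.78 FPKM in controls 1 to 3, and 22.8, 4.31 and 4.82 FPKM in preeclampsia 1 to 3. Gins4, a subunit of the GINS complex, measured 6.92, 11.7 and 5.61 FPKM in the controls and 16.3, 6.19 and 6.05 FPKM in the preeclampsia libraries. Mcm10 spanned 6.02-fold from its lowest to its highest library and Gins4 2.91-fold, with overlapping groups in both. Gins1 spanned 6.47-fold, the widest of all members, and averaged 3.96 ± 2.31 and 5.68 ± 4.91 FPKM. Gins2 averaged 1.19 ± 0.676 and 1.35 ± 0.814 FPKM, Gins3 1.48 ± 0.548 and 1.98 ± 1.6, and Cdc45 4.53 ± 2.56 and 5.00 ± 4.56. Gins2 overlaps Gse1, on the opposite strand, over 2687 bases, and no source used here says whether counting used the strand, so reads of that stretch cannot be told apart.

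All 6 polymerase and primase genes were higher in the preeclampsia group, at a median of 0.12 in log2 fold change, and none was called. Pola1, the catalytic subunit of polymerase alpha, measured 13.0, 19.2 and 7.01 FPKM in controls 1 to 3, and 26.2, 7.89 and 8.37 FPKM in preeclampsia 1 to 3. Prim1, the primase subunit that makes the RNA primer, measured 6.89, 9.66 and 5.08 FPKM in the controls and 12.6, 5.01 and 6.11 FPKM in the preeclampsia libraries. Preeclampsia library 1 was highest in both, while preeclampsia library 2 lay at or near the lowest control. Pole, for the leading strand polymerase epsilon, averaged 6.45 ± 3.51 and 6.70 ± 5.83 FPKM, and Pold1, for the lagging strand polymerase delta, 6.28 ± 2.82 and 7.18 ± 4.21. Pola2 averaged 3.13 ± 0.864 and 4.03 ± 2.96 FPKM and Prim2, the other primase subunit, 5.28 ± 1.77 and 5.51 ± 3.12.

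The clamp, its loader and the single-strand binding proteins were the least variable group, with a median range of 1.44 on the log2 CPM scale over 8 genes. Rfc1, the large subunit of the clamp loader (chromosome 14, 42966279 to 43041372), measured 46.2, 58.7 and 46.9 FPKM in controls 1 to 3, and 62.1, 42.4 and 41.2 FPKM in preeclampsia 1 to 3. Its 1.51-fold span was the narrowest of the 37 genes, yet preeclampsia library 1 and control library 2 still ranked first and second. Rfc1 also had the smallest standard error, with a log2 fold change of -0.04 (SE 0.18). Rfc3, a small subunit of the same loader, measured 18.8, 31.2 and 18.2 FPKM in the controls and 47.3, 21.1 and 17.0 FPKM in the preeclampsia libraries. The small subunits thus spanned more than the large one: 2.1-fold for Rfc2, 2.79-fold for Rfc3, 3.45-fold for Rfc4 and 3.32-fold for Rfc5. Rfc2 averaged 14.1 ± 3.57 FPKM in the controls and 14.9 ± 6.74 in the preeclampsia group, Rfc4 9.14 ± 3.95 and 9.47 ± 6.38, and Rfc5 9.33 ± 3.85 and 11.4 ± 8.56. Pcna, the clamp itself, averaged 12.2 ± 6.09 and 13.1 ± 7.82 FPKM, and its log2 fold change was 0.11 (SE 0.48). Rpa1 and Rpa2, subunits of the protein that coats single-stranded DNA, averaged 13.1 ± 4.35 and 3.76 ± 1.28 FPKM in the controls, and 13.5 ± 6.94 and 3.91 ± 2.86 in the preeclampsia group. Of these 8 genes 7 were higher in preeclampsia, the median of their log2 fold changes was 0.07, and none was called.

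Okazaki fragments are finished by Fen1, a nuclease that trims flaps, and Lig1, the ligase that seals nicks. Lig1 measured 14.8, 18.6 and 7.0 FPKM in controls 1 to 3, and 32.3, 9.67 and 9.42 FPKM in preeclampsia 1 to 3. Fen1 measured 6.43, 14.2 and 6.0 FPKM in the controls and 17.6, 7.03 and 7.03 FPKM in the preeclampsia libraries. Control library 1 lay near control library 2 for Lig1 and near control library 3 for Fen1, so the members did not follow 1 common scale factor. The log2 fold changes were 0.34 (SE 0.58) for Lig1 and 0.26 (SE 0.48) for Fen1, neither called.

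**Figure D4:**
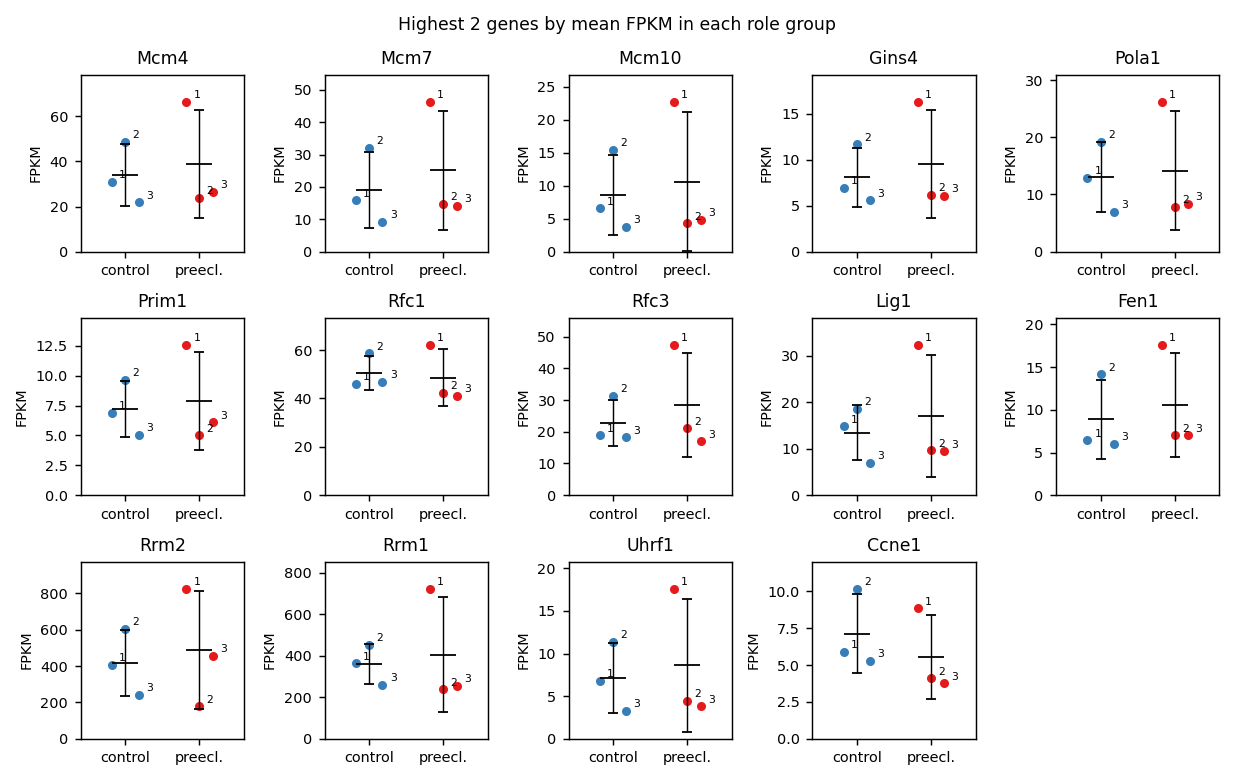
FPKM (vertical axis, from 0) of the 2 genes chosen by mean FPKM in each of 7 role groups, 1 point per library with its replicate number, and the mean ± SD of 3 libraries. Preeclampsia library 1 is the highest point in every panel but Ccne1, and the groups overlap in all panels.

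In nucleotide supply, the subunits of ribonucleotide reductase differed from each other in 1 library. Rrm2, the small subunit of ribonucleotide reductase, which makes deoxyribonucleotides (chromosome 6, 41339858 to 41346774), measured 406, 606 and 240 FPKM in controls 1 to 3, and 826, 179 and 456 FPKM in preeclampsia 1 to 3. Rrm1, the large subunit of the same enzyme (chromosome 1, 156823960 to 156848262), measured 363, 453 and 260 FPKM in the controls and 723, 239 and 254 FPKM in the preeclampsia libraries. Preeclampsia library 3 thus lay 2.54-fold above preeclampsia library 2 for Rrm2 and 1.07-fold for Rrm1, the ratio over the other 36 members running from 0.656 to 1.44. The Rrm2 counts behind this were 7182 and 3458. This contrast was singled out after the values were seen and has no test. Tyms, thymidylate synthase, measured nearly the same in controls 1 and 2, at 86.0 and 86.7 FPKM, and averaged 75.8 ± 18.3 FPKM in the controls and 72.4 ± 40.1 in the preeclampsia group. Its log2 fold change was -0.07 (SE 0.39), and those of Rrm1 and Rrm2 were 0.17 (SE 0.46) and 0.22 (SE 0.56).

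The regulators of S phase entry included the members whose preeclampsia means were lowest against the controls. Ccne1, cyclin E1, which activates the kinase Cdk2 late in G1, measured 5.91, 10.2 and 5.31 FPKM in controls 1 to 3, and 8.86, 4.10 and 3.77 FPKM in preeclampsia 1 to 3. Ccne2, cyclin E2 (chromosome 5, 24285078 to 24298258), measured 4.31, 12.9 and 3.58 FPKM in the controls and 9.51, 2.00 and 2.87 FPKM in the preeclampsia libraries. In both cyclins control library 2 exceeded preeclampsia library 1, the reverse of the other 35 members. The log2 fold changes were -0.35 (SE 0.39) for Ccne1 and -0.53 (SE 0.72) for Ccne2, neither called. Ccne2 overlaps Ints8 on the opposite strand over 2717 bases, and Ints8 had up to 3689 counts per library against 471 to 2650 for Ccne2, so reads of that stretch cannot be told apart. Uhrf1, which binds hemimethylated DNA behind the fork and brings in the methyltransferase Dnmt1, measured 6.80, 11.4 and 3.26 FPKM in the controls and 17.6, 4.45 and 3.83 FPKM in the preeclampsia libraries. E2f1, the transcription factor, averaged 2.66 ± 0.537 and 2.68 ± 1.71 FPKM, and its log2 fold change was 0.01 (SE 0.42). For Uhrf1 it was 0.26 (SE 0.70), and the preeclampsia libraries spread wider than the controls in both genes.

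Further genes of the pathway were read from the same fit. Of 16 other genes of origin licensing and firing, 11 were higher and 5 lower in the preeclampsia group, with 0 called and log2 fold changes centred on a median of 0.09. Orc2, of the origin recognition complex, averaged 25.1 ± 3.83 and 22.1 ± 6.25 FPKM, and the helicase gene Recql4 14.2 ± 6.63 and 15.1 ± 15. Of 19 other fork genes tested, 15 were higher and 4 lower, with 0 called and a median of 0.11. Top1, which relieves twist ahead of the fork, averaged 52.6 ± 2.16 and 57.0 ± 8.74 FPKM and Timeless, a fork protection factor, 18.9 ± 8.89 and 21.9 ± 15.9. Dna2 was not analysed here. Of 9 genes of chromatin assembly and maintenance, 6 were higher and 3 lower, with 0 called and a median of 0.11. Chaf1a, a histone chaperone subunit, averaged 25.6 ± 11.7 and 28.9 ± 20.1 FPKM and the histone acetyltransferase Hat1 21.3 ± 8.90 and 23.1 ± 16.9. Preeclampsia library 1 was highest in 11 of 16, 16 of 19 and 8 of 9 genes of these lists.

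Of 14 other genes of nucleotide supply, 9 were higher and 5 lower, 0 were called, and the median was 0.03 in log2 fold change. Rrm2b, a p53-induced alternative to Rrm2, measured 21.9, 27.7 and 33.7 FPKM in controls 1 to 3, and 18.9, 16.8 and 21.9 FPKM in preeclampsia 1 to 3. Its groups met but did not overlap, with a log2 fold change of -0.51 (SE 0.19) and an adjusted p of 0.493 by edgeR. Unlike Rrm2, it was highest in control library 3 and lowest in preeclampsia library 2. Samhd1 also had groups that did not overlap, in the other direction, with a log2 fold change of 0.44 (SE 0.22). These 2 of 14 genes were near the 15.6% of all tested genes without overlap. At an unadjusted p under 0.05 by edgeR there was 1 of 14, near the 9.19% of all tested genes.

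Among 26 tested regulators of the E2F, retinoblastoma and cyclin pathway, 13 were higher and 13 lower, with 0.01 as the median log2 fold change. DESeq2 called 1 of them, against 2.33% of all tested genes, and edgeR called 0. At an unadjusted p under 0.05 there were 3 of 26, near the 9.19% of all tested genes, and none passed the adjustment. Cdk6, a kinase that acts on the retinoblastoma protein, measured 208, 218 and 135 FPKM in controls 1 to 3, and 120, 96.8 and 90.9 FPKM in preeclampsia 1 to 3. The kinase inhibitor gene Cdkn1b measured 3.31, 2.22 and 4.19 FPKM in the controls and 5.77, 4.54 and 6.95 FPKM in the preeclampsia libraries. The p53-induced inhibitor gene Cdkn1a measured 39.6, 35.3 and 39.9 FPKM in the controls and 26.1, 31.9 and 27.8 FPKM in the preeclampsia libraries. In these 3 genes and E2f3 the groups did not overlap, 4 of 26 being near the 15.6% of all tested genes. The adjusted p by edgeR was 0.441 for Cdk6, 0.473 for Cdkn1b and 0.481 for Cdkn1a. The log2 fold changes of these 3 were -0.85 (SE 0.22), 0.85 (SE 0.27) and -0.40 (SE 0.14), in the same order. Myb did not pass the filter on low counts.

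Genes of G2 and M phase were also highest in preeclampsia library 1, with control library 2 second by the list's mean. All 25 were higher in the preeclampsia group and 0 were called, the median being 0.44 in log2 fold change and the smallest adjusted p 0.813 by edgeR. Without preeclampsia library 1, 0 of 25 were higher and the median was -0.74. Cenpf, a kinetochore gene, averaged 40.5 ± 15.2 and 53.9 ± 50.3 FPKM and Prc1, of the midzone spindle, 51.3 ± 22.4 and 59.2 ± 59.1. Over the 25 genes the mean log2 CPM was 6.68 in preeclampsia library 1 and 5.61 in control library 2, against 4.40 to 5.31 in the other 4 libraries. Preeclampsia library 1 was highest in 25 of 25 of them. It and control library 2 were the top pair in 18 of 25, against 36 of 37 replication genes and 10.9% of all tested genes. The difference between the G2 and M phase genes and the replication genes was not tested.

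**Figure D5:**
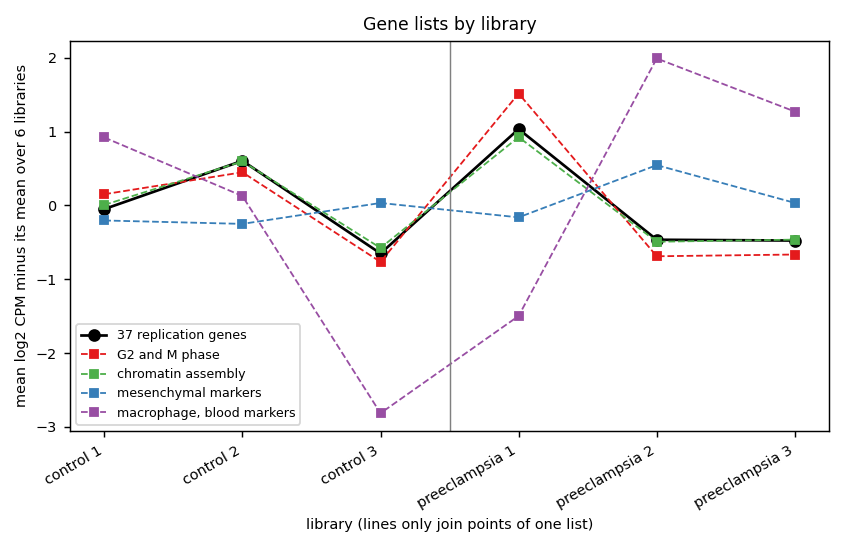
Mean log2 CPM of each gene list in the 6 libraries, minus the list's mean over the libraries. The replication genes, the 25 G2 and M phase genes and the 9 chromatin assembly genes peak in preeclampsia library 1 and control library 2, while the 11 macrophage and blood cell markers are lowest in control library 3 and the 10 mesenchymal markers are highest in preeclampsia library 2.

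Other features of the libraries were set beside the replication genes. All 10 mesenchymal markers had counts in every library, at a summed 23459 to 31561 CPM in the controls and 30025 to 41602 CPM in the preeclampsia libraries. Among them were Col1a1, a collagen chain, and the chemokine Cxcl12. The sum hides a wide spread in some of them, Nt5e running from 6.02 to 104 FPKM and Eng from 3.72 to 44.5 FPKM across the libraries. Preeclampsia library 1 and control library 2 were highest together in 1 of these 10 markers, near the 10.9% of all tested genes. Of the 10 markers 7 were higher and 3 lower in preeclampsia, at a median of 0.16 in log2 fold change. In 2 of the 10, Col1a2 and Pdgfra, the groups did not overlap, against 15.6% of all tested genes. Both were higher in preeclampsia, with an adjusted p by edgeR of 0.473 for Col1a2 and 0.373 for Pdgfra. Pdgfra averaged 104.5 ± 10.1 FPKM in the controls and 290.7 ± 104 in the preeclampsia group. DESeq2 called 1 of the 10 and edgeR 0. The 11 macrophage and blood cell markers summed to 35.1 to 251 CPM in the controls and 44.1 to 890 CPM in the preeclampsia libraries, Laptm5 and Lyz2 among them, and Cd34 was at 0 FPKM in control libraries 2 and 3 and preeclampsia library 2. Of these 11, 10 were higher and 1 lower in preeclampsia, at a median of 1.04 in log2 fold change, and 0 were called. Without preeclampsia library 2, 7 were higher and the median was 0.17. Preeclampsia library 1, highest for replication genes, was at 44.1 CPM in these markers, far below preeclampsia libraries 2 and 3 at 890 and 475.5 CPM. Control library 2 was at 198.5 CPM, between control library 3 at 35.1 and control library 1 at 251 CPM. The part of these cells in the replication values was not tested. The 7 epithelial markers summed to 53.3, 191 and 88.2 CPM in controls 1 to 3 and to 275, 86.0 and 45.0 CPM in preeclampsia 1 to 3. The 2 libraries high in replication genes were thus also the highest in this sum. Krt7 had the same 2 libraries on top, at 80.7 FPKM in preeclampsia library 1 and 33.6 in control library 2. It measured 12.4 to 24.6 FPKM in the other 4. Krt8 measured 37.4 FPKM in control library 2 and 8.41 in control library 3 against 0.40 to 1.35 in the other 4. Krt8 was at its lowest in preeclampsia library 1. Krt18 measured 17.15 FPKM in control library 2 and 0.05 in preeclampsia library 1, so the sum did not stand for each of its markers. Of the 3 epithelial markers tested, 1 was higher and 2 lower in preeclampsia, at a median of -3.90 in log2 fold change. Among these 3, only Krt18 had groups that did not overlap, at -6.29 in log2 fold change and an adjusted p of 0.441 by edgeR. DESeq2 called 2 of the 3 and edgeR 0. Epcam was at 0 FPKM in 5 of 6 libraries and Cdh1 at 0.10 FPKM or less in all 6. Whether cells with these markers had a part in the replication values was not tested. Endothelial markers, Kdr and Tek among them, summed to 8.9 to 10.9 CPM in the controls and 5.1 to 15.9 CPM in the preeclampsia libraries. Mesothelial markers, Msln and Wt1 among them, summed to 13.6 to 40.6 and 99.9 to 181 CPM. Of these 5 mesothelial markers 2 were higher and 3 lower in preeclampsia, at a median of -0.19 in log2 fold change. Only Msln, 1 of the 5, had groups that did not overlap, against 15.6% of all tested genes. Its log2 fold change was 3.38, with an adjusted p of 0.228 by edgeR. DESeq2 called 1 of the 5 and edgeR 0. Total counts ran from 48402185 to 59193961, and the 2 libraries high in replication genes, at 51942454 and 51790772, lay within that range. Mitochondrial messenger RNA took 2.80% to 3.61% of the counts of a library, with 3.29% in preeclampsia library 1 and 3.61% in control library 2.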

How the data were processed

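RNA was sequenced from 6 cultures of rat amniotic fluid cells, 3 per group. Per the labels' protocols, RNA was selected on oligo(dT) beads and copied with random primers, and adapters carried molecular identifiers. Tools named in the submitters' processing notes, with no role stated, are StringTie 2.1.6, HISAT2 2.2.1, FastQC and cutadapt 1.9. The authors deposited a whole-number count per gene and library, and an FPKM value, per the file headers. Whether identifiers were collapsed, and the genome build, are not given in the sources used here.

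After filterByExpr removed low genes, TMM factors were computed and edgeR 4.0.16 (R 4.3.3) fitted the group alone by quasi-likelihood. P-values of 15776 genes were adjusted by Benjamini-Hochberg, and calls were made under 0.05. Standard errors were taken from the fold change and its F statistic. Log2 CPM was scaled by TMM with a prior count of 2. Summed marker levels and shares used total counts. FPKM levels, as printed by the authors, were compared only within a gene, since the gene lengths they imply are irregular. Across genes, mean FPKM served only to choose which genes to name, and that order is not one of abundance. No pair of libraries was a duplicate, the lowest chi-square being 141 per degree of freedom.

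All 37 members were to be named, with values per library for the highest 2 by mean FPKM in each role group and for any with an unadjusted p under 0.05 or groups that did not overlap. From 6 other lists of the pathway and the cell cycle, up to 3 genes with the smallest unadjusted p under 0.05 were named, or else the highest 2. From the 5 marker lists ranges were given. From each marker list the highest 2 were named as well. The values per library of Ccne2 and Tyms, and those of Epcam, Cdh1, Cd34, Samhd1, Nt5e, Eng and Krt18, were added after they were seen. Col1a2 and Pdgfra were also named after their values were seen. The members and lists were chosen with earlier results of these data known, and no test was made over a list. Alternatives were DESeq2 1.42.0, no filter, RLE and upper-quartile scaling, the replicate number as a block, limma 3.58.1 on log2(FPKM + 1) and log2(FPKM + 0.1), limma with library quality weights, and each library left out. The scripts were tested on simulated counts. An exact permutation test of 3 against 3 cannot go below 0.1 and was not used.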

Additional observations from a re-analysis of the deposited data

How the results depend on the processing

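No member was called by any of 15 alternatives, the smallest adjusted p being 0.384. Over all genes edgeR called 0, DESeq2 called 368 and limma on log2(FPKM + 1) without a filter called 1, and with a library left out edgeR called 0 to 2. The count of members higher in preeclampsia, 32, was 31 to 32 under DESeq2, no filter and other scalings, 24 or 25 in limma on FPKM, 0 in limma with quality weights, and 0 to 36 with a library left out. The median log2 fold change ran from -0.45 to 0.58 over the libraries left out, and from -0.26 to 0.20 over the other settings. Quality weights were 0.483 for preeclampsia library 1 and 0.670 for control library 3, and 1.14 to 1.43 for the rest. Of 555 gene values under the alternatives, 130 changed sign, and 6 moved by more than the gene's within-group SD; the cause was not tested. With the replicate block 25 members were higher, 0 were called and the median was 0.12. Same-numbered libraries had correlations of 0.048, 0.041 and 0.010 between their deviations from the group means. Libraries of different number had correlations from -0.080 to 0.035, and not every library correlated best with its own number. With 3 libraries per group, these values cannot settle whether the shared numbers pair the samples. Sequencing depth was not varied.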

Other observations

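The gene length that the deposited counts and FPKM values imply was irregular. Among 11859 genes with at least 50 counts in every library, it exceeded the whole span of the gene in 921 (7.77%). For the replication genes it ran from 325 bases in Rrm2 to 13021 in Mcm5, with 347 in Rrm1, and in Pcna it was 4541 bases against a span of 3873. For mitochondrial genes, which have no introns, the implied length was 3793 bases for COX1 against a span of 1545, 4558 for COX2 against 684, and 1808 for ND5 against 1830. The ratio of FPKM between genes therefore does not rank them by transcript abundance here, and the FPKM of Rrm1 and Rrm2, far above those of the other members, cannot be read as a level per length. The cause was not tested. Comparisons of 1 gene between libraries do not depend on its length.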
